A study of Homo sapiens with 2 samples.

Results

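The 10 genes described here are long non-coding RNAs that host small nucleolar RNAs (snoRNAs): DANCR, GAS5, SNHG1, SNHG3, SNHG5, SNHG6, SNHG7, SNHG8, SNHG12 and SNHG16. They were taken by gene symbol from a table of 23709 genes, and all 10 are paired there with a non-coding (NR) RefSeq record. The study sequenced 2 poly(A) RNA libraries of the human line Caco-2, which derives from a colorectal adenocarcinoma. One, called RNC-mRNA, holds poly(A) RNA that came down with ribosome-nascent chain complexes (ribosomes still carrying their RNA and growing peptide), and the other, called mRNA, holds poly(A) RNA of the total extract. The cells of both were obtained from ATCC and grown in DMEM with fetal bovine serum, penicillin/streptomycin and ciprofloxacin, and the labels name no treatment. Whether both libraries came from the same culture is not stated. Each group is 1 library, so no difference below has a replicate check, a p-value or a standard deviation. The comparison asks which RNAs are over- or under-represented among RNAs bound by ribosomes.

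A snoRNA host gene is transcribed and spliced like an mRNA gene. Its introns carry snoRNAs, which are trimmed out of the excised intron and guide the chemical modification of ribosomal RNA: C/D box snoRNAs guide ribose methylation and most H/ACA box snoRNAs guide pseudouridylation. The spliced exons leave for the cytoplasm, where short open reading frames can be read by ribosomes, and several such RNAs, GAS5 among them, are known substrates of nonsense-mediated decay (NMD), which destroys RNAs whose reading frame ends early. Many host genes also begin transcription at a pyrimidine tract like that of ribosomal protein genes (the TOP motif).

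RefSeq places 36 snoRNAs inside these 10 genes. GAS5 holds 11 of them, 10 of the C/D box class and 1 of the H/ACA class, and SNHG1 holds 9, of which 8 are named as C/D box snoRNAs. SNHG5, SNHG6 and SNHG16 hold C/D box snoRNAs, DANCR, SNHG3, SNHG7 and SNHG8 hold H/ACA box snoRNAs, and SNHG12 holds 3 H/ACA and 1 C/D box snoRNA. One guide of each class is printed to show what the introns carry, from GENCODE release 29 transcripts on GRCh38, with the conserved boxes a script found in capitals (TGATGA and CTGA in the C/D guide, ACA in the H/ACA guide). SNORD25 lies in SNHG1 at chr11:62855564-62855632 on the minus strand, and SNORA61 lies in SNHG12 at chr1:28579764-28579893 on the minus strand.
SNORD25: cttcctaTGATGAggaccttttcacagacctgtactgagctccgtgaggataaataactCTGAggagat
SNORA61: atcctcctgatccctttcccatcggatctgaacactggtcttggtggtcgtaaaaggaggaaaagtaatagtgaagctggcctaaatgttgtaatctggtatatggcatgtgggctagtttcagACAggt

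The start regions of 6 hosts are printed because a TOP-like start is the feature they could share with ribosomal protein mRNAs. Each runs from 40 bases before the RefSeq start to 20 bases after it (RefSeq, GRCh38.p14). Capitals mark CTTT within 20 bases of the start and TATAA lying 16 to 45 bases before it, both on the RNA strand. The windows are chr6:85678714-85678773 (minus) for SNHG5, chr4:118278722-118278781 (plus) for SNHG8, chr1:28581854-28581913 (minus) for SNHG12, chr17:76557724-76557783 (plus) for SNHG16, chr4:52712354-52712413 (plus) for DANCR and chr1:28505903-28505962 (plus) for SNHG3.
SNHG5: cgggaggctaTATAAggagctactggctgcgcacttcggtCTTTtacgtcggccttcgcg
SNHG8: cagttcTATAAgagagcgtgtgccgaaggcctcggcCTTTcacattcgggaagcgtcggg
SNHG12: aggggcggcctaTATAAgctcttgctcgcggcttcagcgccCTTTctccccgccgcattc
SNHG16: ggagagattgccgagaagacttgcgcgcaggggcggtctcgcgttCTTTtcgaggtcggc
DANCR: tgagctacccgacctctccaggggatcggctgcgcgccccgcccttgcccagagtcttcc
SNHG3: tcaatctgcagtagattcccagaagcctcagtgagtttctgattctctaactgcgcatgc

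Of the 9 hosts with a promoter entry, 4 carried CTTT near the start on the RNA strand (SNHG5, SNHG8, SNHG12 and SNHG16) and 0 carried it on the other strand. Over all 27305 promoters of the same length the shares were 16.2% on the RNA strand and 12.9% on the other, and 47 of 63 cytosolic ribosomal protein genes (74.6%) carried it on the RNA strand. TATAA was found in 4 of the 9 hosts (SNHG5, SNHG7, SNHG8 and SNHG12), in 4.55% of all promoters and in 9.52% of the ribosomal protein genes. On the other strand TATAA was in 0 of the 9 hosts and 2.12% of all promoters. The RefSeq start of GAS5 carried neither motif, but GENCODE release 29 also holds GAS5 transcripts that begin elsewhere. Several of them open with the same run of pyrimidines (in capitals) as a transcript of SNHG16.
GAS5 transcript: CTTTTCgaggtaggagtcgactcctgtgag
SNHG16 transcript: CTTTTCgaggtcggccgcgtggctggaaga

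The read totals worked out from the table were 11083302 for the RNC-mRNA library and 9640364 for the mRNA library. Levels are in RPKM (reads scaled to transcript length and to library total), which the authors computed. Epithelial markers were abundant in both libraries, with KRT8 at 1693 and 1490 RPKM, CDX2 at 87.8 and 79.8 RPKM and EPCAM at 272.5 and 244.1 RPKM in the RNC-mRNA and mRNA libraries. The leukocyte genes PTPRC and CD3E and the endothelial CDH5 were below 1 RPKM in both, whereas the endothelial PECAM1 had 1.58 and 4.12 RPKM, and the fibroblast genes COL1A1 and DCN had 26.1 and 46.8 RPKM and 2.37 and 2.36 RPKM.

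Most of these host RNAs had a lower RPKM among ribosome-associated RNAs than in total RNA, SNHG16 by little, and DANCR had a higher one. A relative ratio is log2 of RNC-mRNA over mRNA RPKM, each with 0.1 RPKM added, minus the median of the 13402 genes with a mean of at least 1 RPKM. That median was -0.04. All 10 hosts passed this filter in each library by itself. Of the 10, 9 lay below the median gene, as do 50% of expressed genes by construction and 71.5% of expressed NR records, whereas 4 of the 10 lay below the median NR record. Many NR records are of low level. Of the 374 NR records with a mean of at least 10 RPKM, which all hosts but SNHG12 reach, 182 lay below the median gene. The median of the 10 was -0.43, or 0.045 relative to the median NR record, against 0 for all expressed genes, -0.47 for the 1462 expressed NR records and 0.02 for the 374 NR records with a mean of at least 10 RPKM.

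Together the 10 hosts held 506.7 RPKM in the RNC-mRNA library and 705.4 RPKM in the mRNA library, or 0.110% and 0.153% of all RPKM. GAS5, an RNA named for accumulating in growth-arrested cells, had 95.9 RPKM in the RNC-mRNA library and 179.6 RPKM in the mRNA library. SNHG1 had 72.0 and 118.1 RPKM in the RNC-mRNA and mRNA libraries. SNHG3, the host of the U17 snoRNAs SNORA73A and SNORA73B, had 10.1 and 19.1 RPKM in the same order. These 3 hosts each stood lower in the RNC-mRNA library. SNHG6 was also lower there, with 29.2 RPKM against 54.7 RPKM in the mRNA library.

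SNHG5, the host of the U50 snoRNAs, had 34.7 RPKM in the RNC-mRNA library and 49.1 RPKM in the mRNA library. SNHG7 had 34.4 RPKM in the RNC-mRNA library and 46.6 RPKM in the mRNA library. SNHG8 had 47.5 RPKM in the RNC-mRNA library and 63.8 RPKM in the mRNA library. These hosts, in the middle of the range, were closer in level between libraries than GAS5 and SNHG6. SNHG12, the least abundant of the 10, had 7.57 RPKM in the RNC-mRNA library and 9.83 RPKM in the mRNA library. SNHG16 had 76.7 RPKM in the RNC-mRNA library and 83.8 RPKM in the mRNA library. DANCR, an RNA named for opposing differentiation of epidermal progenitor cells, had 98.6 RPKM in the RNC-mRNA library and 80.8 RPKM in the mRNA library, and was the only one of the 10 with the higher level in the RNC-mRNA library.

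**Figure D1:**
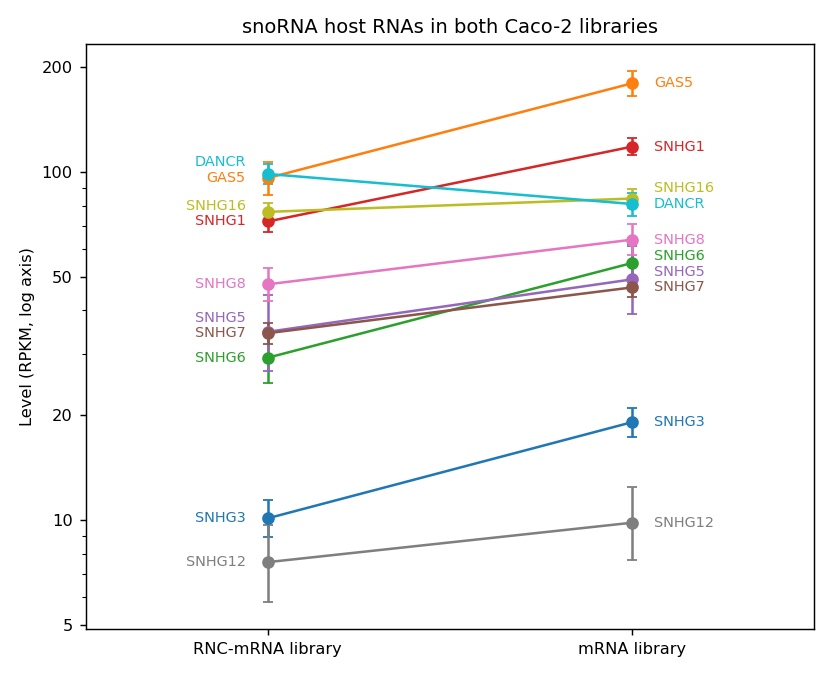
Level of each host RNA in RPKM (log axis) in the RNC-mRNA library (left) and the mRNA library (right), with 95% Poisson intervals on the fewest reads that explain the values. The lines of 9 hosts lie higher on the right (RPKM as deposited), and the line of DANCR lies higher on the left.

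The order of the levels differed between the libraries. In the RNC-mRNA library DANCR and GAS5 stood first, with overlapping counting intervals (92.3 to 105.1 and 86.0 to 106.8 RPKM), followed by SNHG16 and SNHG1, whose intervals also overlapped. In the mRNA library GAS5 stood first and SNHG1 next, each apart from its neighbours, and SNHG16 and DANCR, which followed, overlapped. SNHG8, SNHG5, SNHG7 and SNHG6 filled places 5 to 8 in the RNC-mRNA library, and in the mRNA library the same 4 hosts filled these places in another order. Within these 4, the intervals of hosts in neighbouring places overlapped in both libraries, so counting does not resolve the order of neighbours. SNHG3 and SNHG12 came last in both libraries. Among expressed genes GAS5 was at percentile 94.3 in the RNC-mRNA library and 97.7 in the mRNA library, and among expressed NR records it ranked 36 and 19.

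For description the relative ratios are given as a low set of 4, a middle set of 4 and SNHG16 and DANCR at the top. The first 2 sets are not clearly apart: the interval of SNHG1 in the low set overlapped those of SNHG5, SNHG8 and SNHG12. SNHG3 had a relative ratio of -0.87 (95% counting interval -1.11 to -0.65). GAS5 was at -0.87 (-1.07 to -0.67) and SNHG6 at -0.86 (-1.17 to -0.57), so that these 3 hosts, of very different abundance, were 1.83-fold, 1.82-fold and 1.82-fold lower than the median gene. SNHG1 was at -0.68 (-0.80 to -0.55), or 1.60-fold lower. These 4 passed a line of 1.5-fold that was chosen after the values were seen, as did 19.7% of expressed genes and 45.8% of expressed NR records in the same direction. SNHG1 stood at -0.57, short of the line, without the filter on low values and with centring on ribosomal protein genes, so that 3 hosts passed it there. The number of hosts at least 1.5-fold higher was 0, against 7.44% of expressed genes and 5.13% of expressed NR records. Of the 374 NR records with a mean of at least 10 RPKM, 75 were at least 1.5-fold lower and 16 at least 1.5-fold higher.

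SNHG5 (-0.46, interval -0.96 to 0.03), SNHG7 (-0.40, -0.53 to -0.26), SNHG8 (-0.39, -0.61 to -0.17) and SNHG12 (-0.33, -0.86 to 0.18) made up the middle set. The intervals of SNHG5 and SNHG12 spanned the median gene, and as few as 65 and 62 RNC-mRNA reads explain their values. For SNHG5 that number holds at a length of 169 bases, shorter than any annotated transcript of the gene (the shortest has 257 bases). At the next length that explains both values, 338 bases, SNHG5 has 130 RNC-mRNA and 160 mRNA reads and an interval of -0.81 to -0.12, wholly below the median gene. No other host had its fewest reads at a length under its shortest annotated transcript. For GAS5 that length was 316 bases, whereas the transcript linked to its record has 632 bases, so the GAS5 interval may also be wider than its reads require. SNHG16 was at -0.09 (-0.21 to 0.04), not distinguishable from the median gene at this depth. DANCR was at 0.32 (0.18 to 0.47), or 1.25-fold higher, and its interval overlapped that of no other host, the nearest bounds being 0.180 for DANCR and 0.176 for SNHG12.

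**Figure D2:**
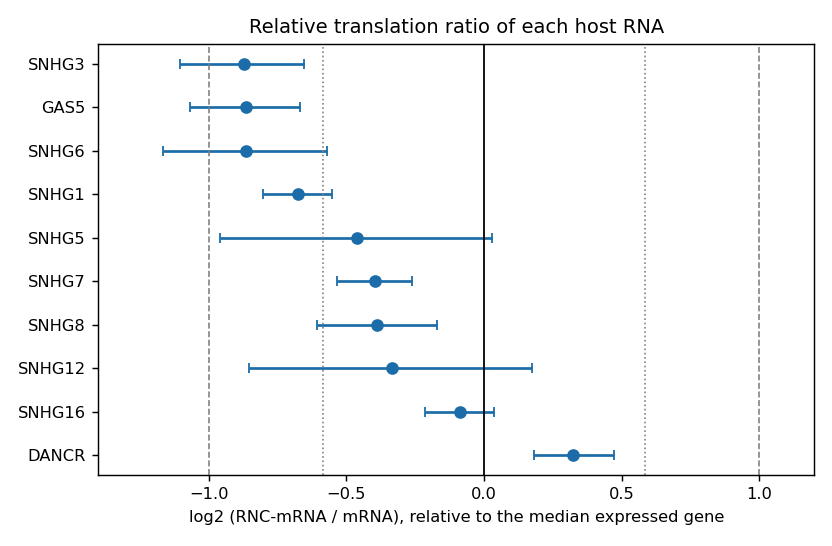
Relative ratio of each host RNA (log2 scale, 0 is the median expressed gene) with its 95% Clopper-Pearson counting interval; dashed lines mark 2-fold and dotted lines 1.5-fold. From SNHG3 at -0.87 to DANCR at 0.32, 9 points lie left of 0 and all lie inside the 2-fold lines.

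The count of hosts at least 2-fold from the median gene was 0 in either direction, whereas 11.8% of expressed genes and 35.3% of expressed NR records were at least 2-fold lower and 1.37% of expressed genes and 1.71% of expressed NR records were at least 2-fold higher. Of the 374 NR records with a mean of at least 10 RPKM, 47 were at least 2-fold lower and 1 at least 2-fold higher. The counting interval lay wholly below the median gene for 6 of the 10 hosts, SNHG5 not among them, and wholly above it for 1. For 13321 expressed genes with reads in both libraries, the shares were 30% and 29.7%. For 1396 NR records they were 45% and 13.3%. Of 372 NR records with a mean of at least 10 RPKM, 129 lay wholly below the median gene and 128 wholly above it. The lowest hosts stood at percentile 13.4 of all expressed genes and percentile 37.8 of NR records, and DANCR stood at 77.8 and 86.6. The 1462 expressed NR records ranged from -7.87 to 5.29 and the 10 hosts from -0.87 (SNHG3) to 0.32 (DANCR). A far larger set is bound to reach further, so these ends cannot be compared.

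**Figure D3:**
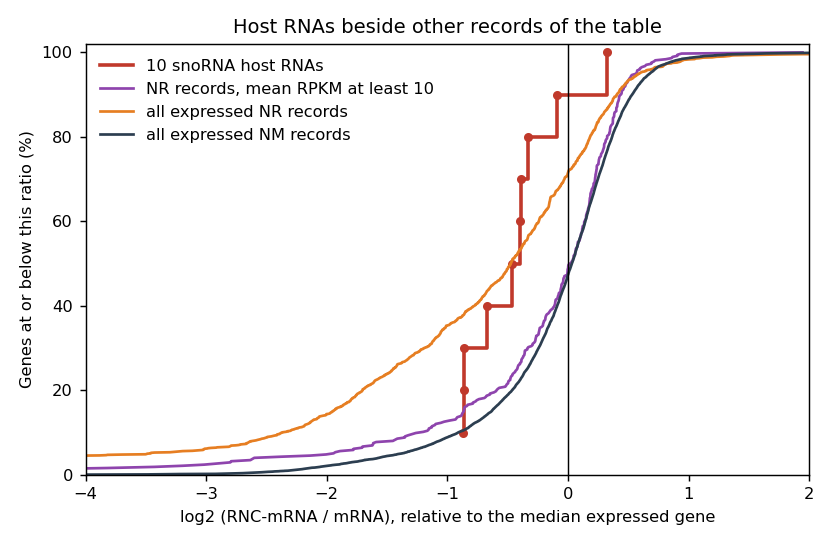
Cumulative share (%) of genes at or below each relative ratio (log2 scale) for the 10 host RNAs, NR records with a mean of at least 10 RPKM, all expressed NR records and all expressed NM records. The host curve starts at -0.87 and ends at 0.32, with its median at -0.43, whereas the other curves, of many more genes, run on to lower and higher ratios.

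The ranges of hosts of either snoRNA class overlapped. Hosts of C/D box snoRNAs alone (SNHG1, SNHG5, SNHG6 and SNHG16) ranged from -0.86 to -0.09 with a median of -0.57, and hosts of H/ACA box snoRNAs alone (DANCR, SNHG3, SNHG7 and SNHG8) from -0.87 to 0.32 with a median of -0.39. GAS5 and SNHG12 hold both classes. By the RefSeq starts, the 4 hosts with CTTT near the start lay between -0.46 and -0.09, inside the range of the 5 without it, which ran from -0.87 (SNHG3) to 0.32 (DANCR). GAS5 (-0.87) is among those without it, although several of its GENCODE transcripts open with CTTTTC. SNHG1 is also classed without CTTT, yet a GENCODE transcript of it opens with TCTTTT. SNHG12 is classed with CTTT, yet the GENCODE transcript linked to its record opens with CCTTCCT. Which hosts fall in each class, and the ranges of the classes, therefore depend on which start is used. With so few members these are descriptions.

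Reading frames were short in these RNAs. In the GENCODE transcript linked to each record, available for 9 hosts, the longest frame from ATG to a stop held between 29 codons (SNHG6) and 79 codons (SNHG7). The first ATG opened a frame of 50 codons in GAS5, of 52 codons in SNHG8 and of 35 codons in SNHG5. In DANCR the first ATG, at base 140, is followed directly by a stop codon, and in SNHG1 the first frame holds 5 codons. DANCR, with the highest ratio, and SNHG1, among the 4 lowest, both had very short first frames in these transcripts, and which isoform the cells made was not measured.

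Some of the reads are uncertain because other genes share the exons and the labels name no strand-preserving step. Exons on the opposite strand covered 29.3% of the annotated exonic bases of SNHG6 (MCMDC2, 0.460 RPKM in the RNC-mRNA library and 1.99 RPKM in the mRNA library), 25.2% of those of SNHG7 (FAM69B, 25.3 and 32.8 RPKM) and 30.6% of those of SNHG16 (AC015802.6). Smaller shares were covered in DANCR (11.9%, by the processed pseudogene AC104066.1, which has no matched value), GAS5 (1.16%) and SNHG12 (0.188%). SNHG3 shares 242 exonic bases on its own strand with RCC1, a nucleotide exchange factor for the GTPase Ran, which had 28.7 RPKM in the RNC-mRNA library and 24.2 RPKM in the mRNA library (relative ratio 0.29). The part of these neighbours in the values was not tested. Without SNHG6, SNHG7 and SNHG16, the median of the remaining 7 hosts was -0.46.

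The snoRNAs inside the hosts were barely present in these poly(A) libraries. Of the 36, 32 have a record in the table, and 10 of these were listed at 0 in both libraries. Their RPKM values correspond to 17 reads in the RNC-mRNA library and 67 in the mRNA library, a ratio of 0.221 per library total (95% Clopper-Pearson interval 0.121 to 0.380, counting error only). Of the 22 records with a read, 20 were lower and 2 higher in the RNC-mRNA library. Of 155 snoRNA records outside these hosts with a value in either library, 127 were lower and 28 higher (81.9% lower), and 76.8% of all NR records outside these hosts with a value were lower. SNORD76, in GAS5, had 3.34 RPKM from 3 reads in the RNC-mRNA library and 15.4 RPKM from 12 reads in the mRNA library. SNORD80, also in GAS5, had 0 RPKM among ribosome-associated RNA, where 3 reads would give 3.81 RPKM, and 8.77 RPKM from 6 reads in the mRNA library. SNORD47, in the same gene, had 0 RPKM (3 reads would give 3.52 RPKM) and 8.08 RPKM from 6 reads in the same order.

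SNORD25, the C/D guide printed above, had 2.69 RPKM from 2 reads in the RNC-mRNA library and 7.74 RPKM from 5 reads in the mRNA library. SNORA61, the H/ACA guide, had 0 RPKM among ribosome-associated RNA, where 3 reads would give 2.08 RPKM, and 3.19 RPKM from 4 reads in the mRNA library. In SNHG1, SNORD22 had 1 RNC-mRNA read and 6 mRNA reads, SNORD29 had 3 and 4, and SNORD26 had 0 and 3. In SNHG12, SNORA44 had 0 and 4. The 2 records that were higher in the RNC-mRNA library, SNORD78 and SNORD75 of GAS5, rest on 2 against 1 read and 1 against 0 reads. Another 9 records reached 1 RPKM in a library on at most 3 reads in either: SNORA26, SNORD44, SNORD77, SNORD31, SNORD30, SNORD28, SNORA17A and SNORA17B (listed as SNORA17 and SNORA43) and SNORD1C. All of these counts are small beside those of the hosts, for which GAS5 alone rests on at least 336 RNC-mRNA reads. Reads on a snoRNA record can come from the snoRNA, from unspliced host RNA or from host exons that overlap it, and these sources cannot be told apart here.

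**Figure D4:**
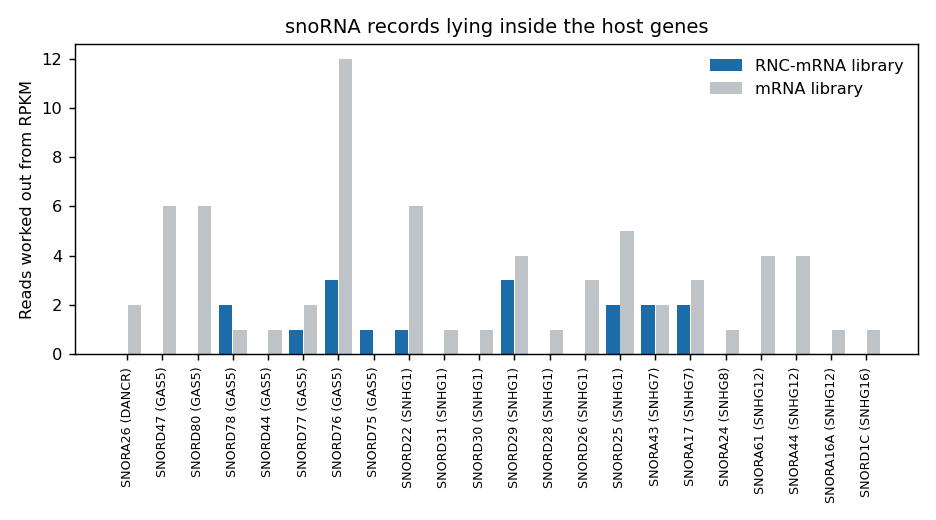
Reads worked out from the RPKM values for each snoRNA record inside a host gene (host in brackets) that had any read, with the RNC-mRNA library at the left of each pair and the mRNA library at the right. SNORD76 has 3 and 12 reads, and most other records have fewer reads in the RNC-mRNA library than in the mRNA library.

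Other non-coding snoRNA hosts lay below the median gene in a share near that of NR records. Of 21 such genes listed, 11 were matched in the table, 5 of them under older names through their RefSeq accession. Of these 11, 9 lay below the median gene and 3 were at least 2-fold lower (median -0.29, or 0.18 relative to the median NR record), against the 71.5% and 35.3% of expressed NR records given above. SNHG29, listed as C17orf76-AS1, had 350.8 RPKM in the RNC-mRNA library and 414.0 RPKM in the mRNA library (-0.20), more than any of the 10 hosts. ZFAS1, listed as ZNFX1-AS1, had 161.2 RPKM in the RNC-mRNA library and 188.9 RPKM in the mRNA library (-0.19, interval -0.29 to -0.10). SNHG20, listed as LINC00338, was lowest at -1.96 (interval -2.56 to -1.51), with 1.66 RPKM in the RNC-mRNA library and 6.93 RPKM in the mRNA library, and SNHG15 was highest at 0.26 (interval -0.04 to 0.55).

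Protein-coding genes that also carry intronic snoRNAs lay nearer the median gene. The 47 matched had a median of -0.02, which turned to 0.077 without the filter on low values and to 0.45 relative to the median NR record. Of them, 0 were at least 1.5-fold lower and 3 at least 1.5-fold higher, against 19.7% and 7.44% of expressed genes. Among them, the 24 ribosomal protein genes had a median of -0.11, from RPL23 (-0.52) to RPL13 (0.14), and the 23 others had a median of 0.17. The most abundant, RPS2 and RACK1 (listed as GNB2L1), were at 0.09 and 0.03. EIF4G2, a relative of the initiation factor eIF4G, was highest at 0.89, and TPT1 was lowest among those that are not ribosomal protein genes at -0.37. All 79 cytosolic ribosomal protein genes had a median of -0.11 (0.36 relative to the median NR record), from RPL34 (-0.66) to RPS26 (0.46), and RPL41 was at -0.09. A list of long non-coding RNAs, compiled for nuclear regulatory RNAs but also holding some known in the cytoplasm such as H19 and OIP5-AS1, had a median of -1.17 in 11 expressed members (-0.69 relative to the median NR record and -0.76 without the filter on low values). Of these 11, 6 were at least 2-fold lower, against 11.8% of expressed genes, 35.3% of expressed NR records and 0 of the 10 hosts. Their median level was 4.09 RPKM in the RNC-mRNA library and 10.5 RPKM in the mRNA library, against 41.1 and 59.3 RPKM for the hosts. MALAT1, which gathers at nuclear speckles, stood at 89.4 RPKM in the RNC-mRNA library and 315.6 RPKM in the mRNA library (-1.78), and H19 had 97.8 and 241.1 RPKM (-1.26). TUG1 was the highest of these RNAs at 0.18 and TERC, the telomerase RNA, the lowest at -3.02 (interval -5.59 to -1.51). TERC had 0.600 RPKM from at least 3 reads in the RNC-mRNA library and 5.75 RPKM from at least 25 reads in the mRNA library. It passed the filter through its mRNA value alone, so its low ratio is partly set by the filter. With 1 library a group, none of these differences between lists was tested.

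The mRNAs that encode snoRNA particle proteins and NMD factors showed no large shift between the libraries. Protein levels were not measured. Of 21 snoRNP proteins and assembly factors, 13 were above and 8 below the median gene (median 0.10, or 0.58 relative to the median NR record). The count at least 2-fold from it was 0, where 11.8% of expressed genes were at least 2-fold lower and 1.37% at least 2-fold higher. The methyltransferase FBL had 270.8 RPKM in the RNC-mRNA library and 247.1 RPKM in the mRNA library (0.17), and NOP10, a subunit of H/ACA particles, was at 0.34. NUFIP1, a snoRNP assembly factor, was highest at 0.60 and ZNHIT6 lowest at -0.19, with an interval that spanned the median gene. Of 19 NMD and exon junction factors, 10 were above and 9 below, with a median of 0.03 that turned negative in 4 settings (-0.056 with a mean of at least 5 RPKM, -0.042 with upper quartiles, -0.011 without centring and -0.0050 with NM records) and was 0.50 relative to the median NR record. The count of these 19 at least 2-fold from the median gene was 0. Their counting interval lay wholly above the median gene for 9 and wholly below it for 3. For the 21 snoRNP genes these numbers were 7 and 1, and the shares of expressed genes were 29.7% and 30%. RNPS1 was highest at 0.40, EIF4A3, the exon junction helicase, was at 0.35, and UPF3A was lowest at -0.52.

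**Figure D5:**
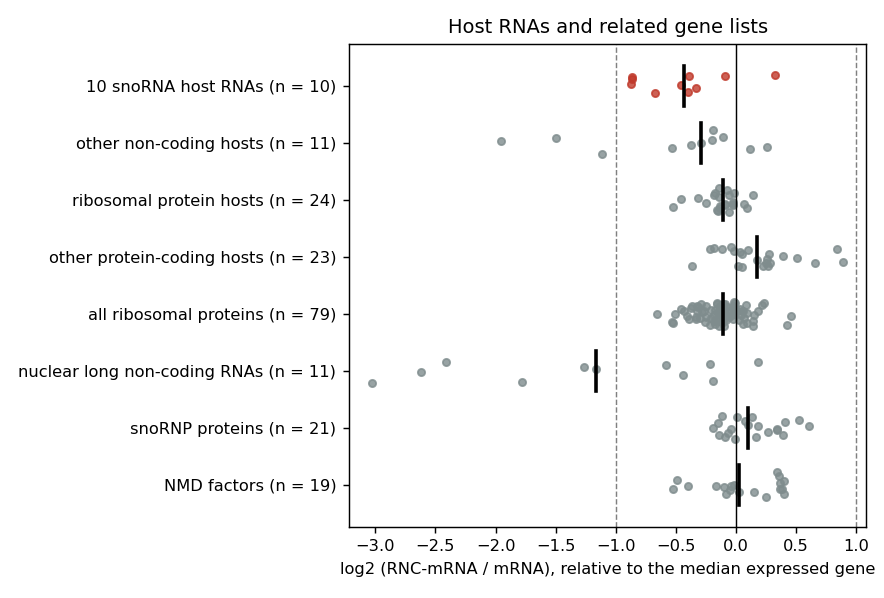
Relative ratio (log2 scale) of each expressed member of the 10 host RNAs and 7 related lists, with the median of each list as a black bar and dashed lines at 2-fold. The bar of the host RNAs lies at -0.43 (0.045 relative to the median NR record), that of the other non-coding hosts at -0.29 (0.18) and that of the nuclear long non-coding RNAs at -1.17 (-0.69).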

How the data were processed

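The deposited table gives, per the file headers, 1 RPKM value for each gene in each library, computed by the authors on hg19, per the submitters' processing notes. The aligner, the counting tool and the treatment of reads that match several genes are not given in the sources used here. The table holds no coordinates; those printed are GRCh38. The members, lists and rules were chosen with earlier results of these data known.

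Each RPKM was taken to be a whole number of reads divided by length and library total, since no read counts were used. The total was the one at which the largest number of values below 2 RPKM, of genes of known GENCODE length, gave 1 to 8 whole reads (219 RNC-mRNA and 230 mRNA matches, against 176 and 96 at the next best). For 22 snoRNA records with reads, these totals gave whole reads at exactly the RefSeq length in 19. The fewest reads that explain both values at a whole length between 20 and 40000 bases then set the counting intervals, so these are at least as wide as counting error requires (for SNHG5 that length is under any annotated transcript). The median expressed gene rested on at least 282 RNC-mRNA and 260 mRNA reads. Intervals, and the limit of 3 reads used where a value is 0, cover counting error only, and PCR copies of a fragment are not independent. Gene names were matched by symbol, then by RefSeq accession. Named genes are all 10 hosts, the 2 most abundant members and the highest and lowest ratio of each list, and hosted snoRNAs at 1 RPKM or more; 1 gene that the rule names is not reported here. Genes that overlap a host were named for the overlap, and SNHG9 and SNHG10 for their low level. Read recovery was tested on simulated data. Python 3.11.15, numpy 2.4.6, pandas 2.3.3 and scipy 1.17.1 were used.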

Additional observations from a re-analysis of the deposited data

How the results depend on the processing

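No paired analysis was possible because each group has 1 library, and no replicate could be left out. Ratios were recomputed with pseudocounts of 0.01 and 1 RPKM, a mean of at least 5 RPKM, no filter, no centring and centring on NM records, NR records, upper quartiles, a trimmed mean or ribosomal protein genes. Each of the 10 hosts stayed inside its counting interval in all of these except centring on NR records, where 8 moved and 5 changed sign. Apart from the pseudocounts, each setting moves all genes by the same amount. Outside NR centring the largest such move of the centre was -0.11, too small to take any host out of its interval. Staying inside is therefore no check of the ratios. Centring on NR records moves all genes by 0.47, so the median of the hosts became 0.045, 4 hosts lay below the centre and 0 were at least 1.5-fold lower. Under it the medians were 0.18 for other non-coding hosts, 0.45 for protein-coding hosts, -0.69 for nuclear long non-coding RNAs, 0.58 for snoRNP proteins, 0.50 for NMD factors and 0.36 for ribosomal proteins. Without a filter, which moves the centre by -0.10, and with centring on ribosomal protein genes, by -0.11, 1 host (SNHG16) changed sign. For protein-coding hosts the median was -0.11 with a mean of at least 5 RPKM, 0.077 without a filter, -0.094 with upper quartiles and 0.085 centred on ribosomal proteins. For ribosomal proteins it was -0.19, -0.0084, -0.18 and 0 in the same settings, and for nuclear long non-coding RNAs -0.76 without a filter. Leaving out hosts with at least 25% antisense overlap gave a median of -0.46, with 6 of 7 below the median gene. Leaving out SNHG5 and SNHG12, whose fewest reads at any length are under 100, gave -0.54, with 7 of 8 below. At annotated lengths SNHG5 has at least 130 RNC-mRNA reads and its interval, -0.81 to -0.12, no longer spans the median gene. These 3 were added after seeing the data, as was the 1.5-fold line. The depth of SNHG12 and of the snoRNA records limits what can be read from them.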

Other observations

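Across the 9 hosts with a linked GENCODE transcript, Spearman's rho between the relative ratio and transcript length was 0.50, and it was 0.43 with GC content, -0.50 with the number of exons and 0.30 with the length of the longest reading frame. Across all 10 hosts it was 0.01 with the level in the mRNA library. The points share both libraries, and these values are descriptions of a few genes.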
